A study of Rattus norvegicus with 5 samples.

Results

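The regional homeobox transcription factors described here are the *Hox*, *Lhx*, *Irx*, *Nkx*, *Dlx*, sine oculis (such as *Six4*) and *Pou* genes of the rat, read in single-nucleus RNA sequencing (snRNA-seq) of the ventral tegmental area (VTA), the midbrain region that holds the dopamine neurons of the reward pathway. Members were chosen by gene name alone: every gene whose name begins with Hoxa, Hoxb, Hoxc, Hoxd, Lhx, Irx, Nkx, Dlx or Pou, or with the symbol of the sine oculis genes, followed by a digit. This gave 100 rows with 94 different names among 32883 genes, since 5 *Hoxa* names stand on more than 1 row. The rule used no measured value, but it was chosen with earlier results of these data known. It also takes in 3 genes that carry such a name without coding for a homeodomain protein of the family, *Pou2af1*, *Six6os1* and *Dlx6os1*. The samples were VTA punches from 5 adult male Sprague-Dawley rats, with both sides of 1 rat joined into 1 library (rats 1 to 5), and every rat was of the same condition, labelled saline and called drug-naïve in the paper. The series therefore offers no treatment contrast for these genes, and the comparisons below are between classes of nuclei within the same 5 rats.

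Homeobox genes encode transcription factors that bind DNA through a homeodomain, and many of them lay out the body and the brain along the head-to-tail and back-to-belly axes of the embryo. *Hox* genes are used in the hindbrain and spinal cord and are normally silent in front of the hindbrain, *Irx*, *Lhx*, *Nkx*, *Dlx* and sine oculis genes divide the forebrain and midbrain into progenitor domains, and *Pou* genes combine a homeodomain with a second DNA-binding domain and act in neural progenitors, neurons and glia. Some of these genes stay on in the adult neurons of the domain they came from.

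The promoters of 4 members are printed: *Irx1* and *Irx2*, which lie next to each other and were read in the same sub-clusters of GABAergic-like nuclei, *Lhx1*, which was also read there and was near 0 in dopaminergic-like nuclei, and *Pou3f2*, whose difference between those classes had the opposite sign. Promoters of *Irx5* and *Pou3f1* were not used here. In the GRCr8 assembly no protein-coding gene lies between *Irx1* and *Irx2*, *Irx2* and *Irx4*, *Irx3* and *Irx5*, or *Irx5* and *Irx6*. The sequences are from RefSeq on GRCr8, are the 250 bases before the gene start and read 5′ to 3′ along the gene's strand. Capitals mark each GGGCGG, the GC box, on either strand, so that CCGCCC is the same motif on the other strand. The windows are *Irx1* at chr1:33122872-33123121 on the plus strand, *Irx2* at chr1:32494931-32495180, *Lhx1* at chr10:69901077-69901326 and *Pou3f2* at chr5:40880540-40880789, the last 3 on the minus strand.
Irx1: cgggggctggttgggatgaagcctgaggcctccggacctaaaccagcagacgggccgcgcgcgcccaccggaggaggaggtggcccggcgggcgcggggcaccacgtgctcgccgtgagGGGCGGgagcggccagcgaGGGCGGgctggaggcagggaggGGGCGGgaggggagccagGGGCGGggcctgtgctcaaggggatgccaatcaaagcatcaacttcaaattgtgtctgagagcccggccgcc
Irx2: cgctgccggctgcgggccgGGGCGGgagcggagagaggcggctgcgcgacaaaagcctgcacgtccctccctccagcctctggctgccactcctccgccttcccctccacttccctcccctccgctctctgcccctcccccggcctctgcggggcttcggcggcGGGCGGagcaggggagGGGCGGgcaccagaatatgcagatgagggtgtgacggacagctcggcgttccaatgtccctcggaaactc
Lhx1: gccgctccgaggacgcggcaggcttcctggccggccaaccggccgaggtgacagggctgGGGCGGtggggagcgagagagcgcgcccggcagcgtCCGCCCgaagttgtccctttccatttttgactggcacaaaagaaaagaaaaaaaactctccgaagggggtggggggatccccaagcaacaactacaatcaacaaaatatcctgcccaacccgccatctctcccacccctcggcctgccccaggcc
Pou3f2: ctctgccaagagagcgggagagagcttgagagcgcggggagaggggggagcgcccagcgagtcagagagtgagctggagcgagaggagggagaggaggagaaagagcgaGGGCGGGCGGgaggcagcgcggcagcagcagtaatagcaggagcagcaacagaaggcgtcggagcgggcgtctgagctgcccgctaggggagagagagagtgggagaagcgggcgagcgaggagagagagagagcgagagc

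A promoter window of 300 bases, 250 before and 50 after the start, was found for 56 of the 94 names, in 59 windows. GGGCGG was in 62.7% of the windows of members, against 33.1% of all 33469 windows of the rat. The windows of members were rich in G and C, with a median of 62.7% against 51.7% and a median of 21 CpG pairs against 7. TATAAA, the TATA box, was in 6.78% of them against 14.2% of all windows, TAATTA, the core that many homeodomains bind, in 1.69% against 5.36%, and ATGCAAAT, the octamer that Pou factors bind, in 0% against 1.78%. CCAAT was in 40.7% against 37.5%. Motifs were searched on both strands, each was counted on its own whether or not it shared bases with another, and a match or its absence is a description of these windows only.

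Across the 5 libraries, which held 10193355 to 88576210 unique molecular identifiers (UMIs, each 1 counted RNA molecule), 22084 nuclei had at least 1000 UMIs, more than 200 and fewer than 5000 genes and under 5% mitochondrial UMIs. After removal of likely doublets and of clusters that resembled free RNA or mixed types, the markers named 5450 neurons and, among glia, 8485 oligodendrocytes, 702 of their precursors (OPCs), 1028 astrocytes and 570 microglia, beside 377 vascular nuclei. Clusters were made without the members. The class thresholds and the limits on free RNA and glial markers were set later, with the counts of members in the clusters known. Rat 3 stood apart, since 1880 of the neurons but only 40 of the oligodendrocytes came from it and its neurons had a median of 1703.5 UMIs against 5458 over all neurons, and rat 1 gave only 113 neurons. Among the 32 sub-clusters of neurons, 12 were over 90% from rat 3 and 4 over 90% from rat 2, so that sub-cluster and library often cannot be told apart. The classes compared were 2660 GABAergic-like nuclei (*Gad1*, *Gad2*, *Slc32a1*), 932 dopaminergic-like nuclei (*Th*, *Slc6a3*, *Slc18a2*) and 892 nuclei with the vesicular glutamate transporters, called *Slc17a* neurons here because 4 of their 6 sub-clusters held UMIs of only 2 of the 3 transporter genes. A further 157 nuclei with *Tph2* and *Slc6a4*, 238 with both *Gad* and *Slc17a* genes and 571 with glial markers were kept apart. Levels below are UMIs per 10000 UMIs of a class and rat.

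Of the 100 rows, 52 had 0 UMIs in the neurons, 76 had fewer than 10 and 13 had at least 100. Over all 32883 genes the shares were 30.2%, 46.8% and 38.1%. By gene name, with repeated *Hoxa* rows joined, 46 of 94 were at 0. A count of 0 allows up to 3 UMIs, a level of 0.000905 per 10000 UMIs. The members summed to 13500 UMIs in neurons, of which the *Pou* family held 84.4%, the *Irx* family 9.27%, *Lhx* and *Nkx* 2.78% each, the sine oculis family 0.430%, and the 43 *Hox* rows together 45 UMIs. These shares are of counted molecules and were not corrected for anything that makes 1 gene easier to capture than another. All 6 *Irx* genes were detected in neurons, whereas 14 of 15 *Hoxa*, 8 of 10 *Hoxb*, 7 of 9 *Hoxc*, 6 of 9 *Hoxd*, 4 of 7 *Dlx*, 7 of 14 *Nkx* and 4 of 7 sine oculis rows were at 0.

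**Figure D1:**
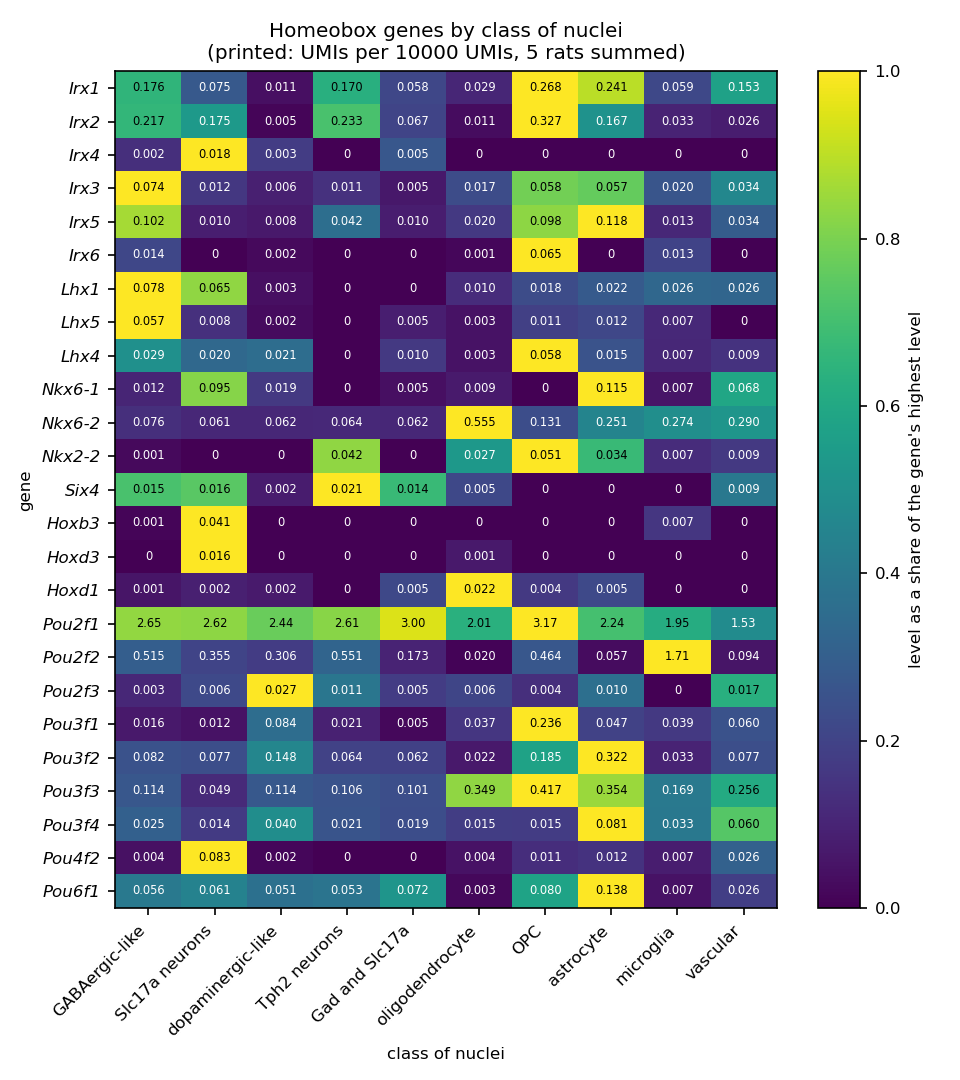
Level of 25 members (rows) in each class of nuclei (columns), printed in each cell as UMIs per 10000 UMIs with the 5 rats summed and coloured as a share of that gene's highest level. *Irx3*, *Lhx1* and *Lhx5* are highest in GABAergic-like nuclei, *Hoxb3* and *Pou4f2* in *Slc17a* neurons, *Nkx6-2* and *Hoxd1* in oligodendrocytes and *Pou2f2* in microglia.

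*Irx1* and *Irx2*, Iroquois genes that pattern the midbrain and hindbrain, were read in GABAergic-like nuclei and, with most UMIs from rat 2, in some sub-clusters of the *Slc17a* neurons, and were near 0 in dopaminergic-like nuclei. *Irx2* was at 0.0501, 0.210, 0.0385, 0.255 and 0.277 per 10000 UMIs in the GABAergic-like nuclei of rats 1 to 5 (mean 0.166 ± 0.114 SD, n = 5), and at 0.00389, 0.0291, 0 and 0 in the dopaminergic-like nuclei of rats 2 to 5 (rat 1 had 4 such nuclei and was left out of this class). The 2 classes did not overlap between rats, and the lowest GABAergic-like level was in rat 3, which also held the highest dopaminergic-like level. Both of these levels rested on few UMIs. The share of all genes without such overlap was not computed, here or for the members below. *Irx2* had a UMI in 10.8% (9.67 to 12.1, exact 95% interval) of GABAergic-like nuclei, 0.322% (0.0664 to 0.938) of dopaminergic-like nuclei and 0.354% (0.239 to 0.504) of oligodendrocytes, with medians of 5821.5, 6465 and 2898 UMIs per nucleus. In *Slc17a* neurons the share was 7.74% (6.07 to 9.69) at a median of 4985.5 UMIs, but 17.5% (13.5 to 22.0) in rat 2, which gave 74 of the 89 UMIs, and 0% to 6.17% in the other rats. Thinned to 1000 UMIs per nucleus, the shares were 1.77% of GABAergic-like nuclei, 1.79% of *Slc17a* neurons of all rats and 0.13% of oligodendrocytes. In the *Slc17a* neurons *Irx2* was at 0.10, 0.324, 0, 0.0523 and 0.0883 in rats 1 to 5, so that rat 2 stood above the others. Of the 89 *Irx2* UMIs in this class, 47 lay in sub-cluster 13 (152 nuclei) and 32 in sub-cluster 28 (46 nuclei), 10 in the 293 nuclei of sub-cluster 6, and sub-clusters 9, 19 and 23 held 0.

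*Irx1* was at 0.0334, 0.223, 0.0539, 0.153 and 0.178 in the GABAergic-like nuclei of rats 1 to 5 (mean 0.128 ± 0.0815 SD, n = 5) and at 0.0117, 0, 0.0135 and 0.0129 in the dopaminergic-like nuclei of rats 2 to 5. Again the classes did not overlap, and rats 1 and 3 had the lowest GABAergic-like levels. Those levels and the dopaminergic-like ones rested on few UMIs. In the *Slc17a* neurons *Irx1* was at 0.150, 0.114, 0.0699, 0.0149 and 0.0442 in rats 1 to 5, from 38 UMIs of which 26 were in rat 2. It had a UMI in 9.06% (8.0 to 10.2) of GABAergic-like nuclei, 0.751% (0.302 to 1.54) of dopaminergic-like nuclei and 0.955% (0.759 to 1.19) of oligodendrocytes. Among glia, OPCs and astrocytes held *Irx1* at 0.268 and 0.241 and *Irx2* at 0.327 and 0.167 per 10000 UMIs, at or above the means of the GABAergic-like neurons. Droplets of fewer than 100 UMIs, which hold free RNA, carried *Irx1* at 0.0977 to 0.244 per 10000 UMIs in the 5 libraries and free RNA was estimated at 8.52% to 15.6% of the UMIs of nuclei.

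Within the GABAergic-like nuclei both genes were concentrated in a few sub-clusters. Sub-cluster 8 (264 nuclei led by *Sox6*, *Glis3* and *Corin*) held *Irx1* at 0.509 (0.414 to 0.618, exact Poisson interval) and *Irx2* at 0.640 (0.533 to 0.761), and its values by library were 0.684, 0.326 and 0.667 for *Irx1* and 0.684, 0.463 and 0.955 for *Irx2* in rats 2, 4 and 5. Sub-cluster 7 (287 nuclei led by *Nox4*, *Meis2* and *Syt6*) held them at 0.467 (0.374 to 0.576) and 0.381 (0.298 to 0.481), and sub-cluster 17 (108 nuclei led by *Calcr* and *Tafa4*) at 0.201 and 0.401. These 3 sub-clusters each had nuclei from rats 2, 4 and 5, and none of their nuclei came from rat 3. Sub-cluster 7 was mostly from rat 2, with 212 of its 287 nuclei, against 40 and 31 from rats 4 and 5. Among the nuclei with both *Gad* and *Slc17a* genes, sub-cluster 26 (*Reln*, *Penk*, *Oprm1*) held *Irx1* at 0.273 and *Irx2* at 0.348, while sub-cluster 12 (*Slc26a7*, *Npsr1*, *Wnt2*) held 1 and 0 UMIs in 188 nuclei. The *Tph2* neurons of sub-cluster 22 held *Irx2* at 0.295 (0.185 to 0.446).

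**Figure D2:**
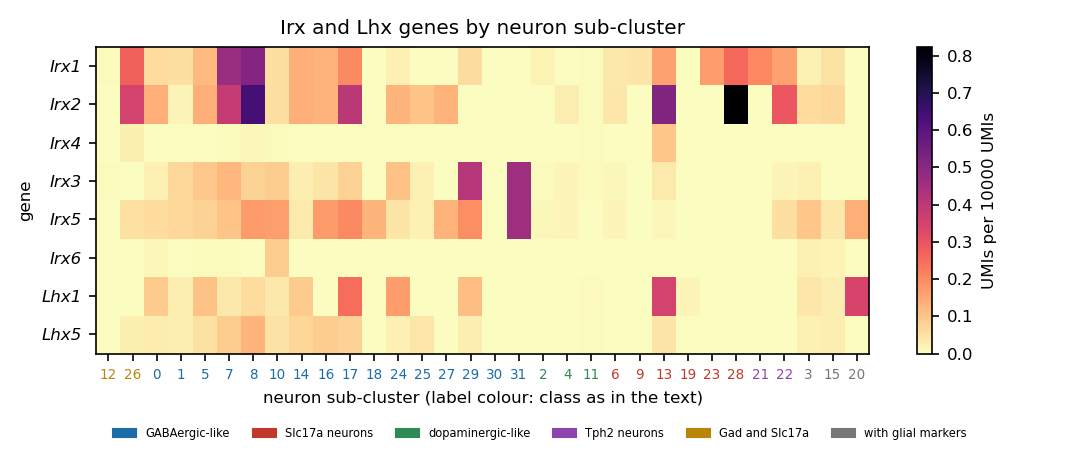
Levels of the *Irx* genes, *Lhx1* and *Lhx5* (rows) in each sub-cluster of neurons (columns, label colour by class), coloured in UMIs per 10000 UMIs. *Irx1* and *Irx2* are darkest in sub-clusters 7, 8, 13, 17, 26 and 28, *Irx3* in 29 and 31, and the columns of the dopaminergic-like sub-clusters 2, 4 and 11 are pale throughout.

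*Irx1* and *Irx2* were also read in the same nuclei. *Irx2* had a UMI in 26.1% (20.7 to 32.2) of the 241 GABAergic-like nuclei with *Irx1* and in 9.30% (8.17 to 10.5) of the 2419 without it, with medians of 7986 and 5478 UMIs per nucleus. The nuclei with *Irx1* were deeper, and the part of depth in this difference was not tested. Both genes were also concentrated in the same sub-clusters, and no share within a sub-cluster was computed. A link within nuclei can thus not be told apart from shared sub-clusters. *Irx5* had a UMI in 11.9% (6.51 to 19.5) of the 109 GABAergic-like nuclei with its neighbour *Irx3* and in 5.61% (4.74 to 6.57) of the others. The medians were 7899 and 5756 UMIs per nucleus. These intervals cover counting error only, and the parts of depth and of shared sub-clusters in this difference were not tested.

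*Irx5* was higher in GABAergic-like nuclei than in both other neuron classes compared and was even across rats. Its level was 0.0668, 0.0934, 0.108, 0.120 and 0.104 in the GABAergic-like nuclei of rats 1 to 5 (mean 0.0984 ± 0.0200 SD), and in the *Slc17a* neurons 0, 0.00875, 0, 0.0224 and 0. The 2 classes did not overlap, though the nearest levels, in rats 1 and 4, rested on few UMIs. The spread between rats was smaller than for *Irx1* or *Irx2*. *Irx5* had a UMI in 5.86% (5.0 to 6.83) of GABAergic-like, 0.561% (0.182 to 1.30) of *Slc17a* and 0.625% (0.468 to 0.816) of oligodendrocyte nuclei. It was read at like levels in sub-clusters 8, 10 and 17, at 0.171, 0.165 and 0.201 per 10000 UMIs, and its highest level, in sub-cluster 31, rested on 2 UMIs. *Irx3* was at 0.0564 ± 0.0362 (SD, n = 5) in GABAergic-like nuclei and was highest in sub-clusters 29 and 31, at 0.414 (0.232 to 0.683) and 0.459 (0.0556 to 1.66), which share the leading genes *Epyc* and *Tcf7l2* and come wholly from rat 2 and rat 3. The other Iroquois genes were named after their values were seen. *Irx6* had 16 of its 28 neuronal UMIs in sub-cluster 10 (215 GABAergic-like nuclei led by *Sox14*), with 6, 6 and 4 UMIs in rats 2, 4 and 5, and *Irx4* had 9 UMIs in sub-cluster 13.

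*Lhx1* and *Lhx5* are LIM homeodomain factors that act in neuron specification. *Lhx1* was at 0.10, 0.0848, 0.0154, 0.0613 and 0.101 in the GABAergic-like nuclei of rats 1 to 5 (mean 0.0726 ± 0.0358 SD) and at 0.00389, 0, 0.00676 and 0 in the dopaminergic-like nuclei of rats 2 to 5. The classes did not overlap, but the nearest levels, in rats 3 and 4, rested on very few UMIs. In the *Slc17a* neurons *Lhx1* was at 0, 0.136, 0, 0.00747 and 0.0147, a level that rests on rat 2, which gave 31 of the 33 UMIs. *Lhx1* had a UMI in 4.36% (3.62 to 5.21) of GABAergic-like nuclei and 0.318% (0.210 to 0.463) of oligodendrocytes, and *Lhx5* in 3.46% (2.80 to 4.23) and 0.0943% (0.0407 to 0.186). *Lhx5* was at 0.0501, 0.0589, 0.0308, 0.0511 and 0.0718 in GABAergic-like nuclei and had 4 and 1 UMIs in the *Slc17a* and dopaminergic-like nuclei. It was highest in sub-cluster 8, which among GABAergic-like sub-clusters also held the highest levels of *Irx1* and *Irx2*, at 0.126 (0.0815 to 0.186), whereas *Lhx1* was highest among GABAergic-like sub-clusters in sub-cluster 17, at 0.251 (0.153 to 0.387). *Lhx4*, best known from the pituitary, was at 0.0362 ± 0.0267, 0.0253 ± 0.0160 and 0.0234 ± 0.0201 (SD) in GABAergic-like, *Slc17a* and dopaminergic-like nuclei, levels that overlapped between rats. The other 5 *Lhx* genes had fewer than 10 UMIs each in neurons.

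The *Hox* genes, markers of hindbrain and spinal origin, were read mostly in 1 small group of nuclei. Sub-cluster 28, 46 *Slc17a* neurons led by *Slc17a7*, *Pappa2* and *Rbm20* and all from rat 2, held 17 of the 22 neuronal UMIs of *Hoxb3*, all 8 of *Hoxd3*, both of *Hoxa2* and 2 of the 4 of *Hoxc4*. In it 23 of 46 nuclei (50%, 34.9 to 65.1) had a UMI of a *Hox* gene other than *Hoxd1*, and 3 nuclei had UMIs of 2 such genes. The same share was 0.131% (0.0527 to 0.270) in the 5341 neurons outside sub-clusters 28 and 23 and 0.0943% (0.0407 to 0.186) in oligodendrocytes, with medians of 7862, 5507 and 2898 UMIs per nucleus. Sub-cluster 23, 63 nuclei of rat 3 that shared the leading genes *Rbm20* and *Ano3*, had *Hoxb3* in 3 nuclei (4.76%, 0.993 to 13.3) at a median of 1632 UMIs. Sub-cluster 28 also held *Irx2* at 0.824 (0.563 to 1.16), in 56.5% (41.1 to 71.1) of its nuclei, and *Irx1* at 0.257 (0.123 to 0.473). The other 3 libraries had no nucleus in either sub-cluster. *Hoxd1* was different, since 62 of its 71 UMIs were in oligodendrocytes, in 0.731% (0.561 to 0.936) of them, against 0.110% (0.0404 to 0.239) of neurons.

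A second library-bound group combined members of 4 families, and *Pou4f2* and *Nkx6-1* were named here after their values were seen. Sub-cluster 13, 152 *Slc17a* neurons led by *Ttc29*, *Stk32a* and *Ntng2*, with *Slc6a5* of glycinergic neurons among the leading genes, came from rat 2 for 142 nuclei. It held 41 of the 56 neuronal UMIs of *Pou4f2*, a Brn3 factor best known from retinal ganglion cells, and 47 of the 86 of *Nkx6-1*, a factor of ventral progenitors. In levels these were 0.446 (0.320 to 0.606) and 0.512 (0.376 to 0.681), beside *Lhx1* at 0.348 (0.238 to 0.492) and *Irx2* at 0.512 (0.376 to 0.681). *Nkx6-1* had a UMI in 12 of the 48 neurons with *Pou4f2* (25%, 13.6 to 39.6) and in 1.04% (0.784 to 1.34) of the other neurons, with medians of 6534 and 5442.5 UMIs. Both genes were picked with most of their UMIs in sub-cluster 13, so a difference of this kind follows from that choice. The shares within sub-cluster 13 were not computed. In rat 3 the nearest was sub-cluster 20, 80 nuclei that shared *Stk32a* and also had astrocyte markers, with *Pou4f2* at 0.486 (0.196 to 1.0), *Lhx1* at 0.347 (0.113 to 0.811) and *Nkx6-1* at 0.278 (0.0757 to 0.712), from 7, 5 and 4 UMIs. The 9 nuclei of sub-cluster 13 from rats 4 and 5 held 6 UMIs of *Irx2*, 2 of *Lhx1*, 2 of *Nkx6-1* and 0 of *Pou4f2*.

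**Figure D3:**
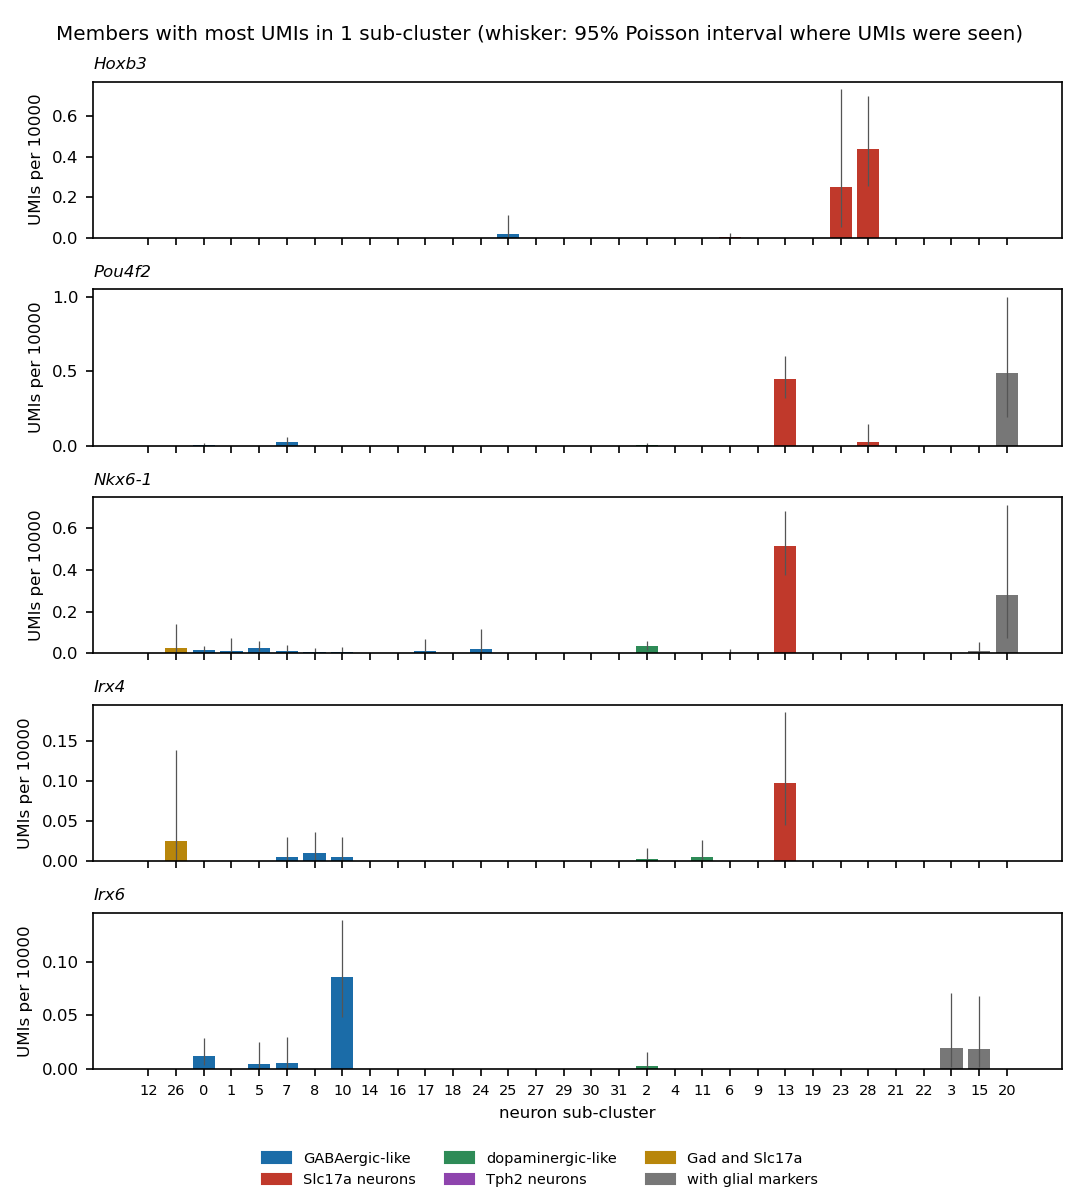
Levels of *Hoxb3*, *Pou4f2*, *Nkx6-1*, *Irx4* and *Irx6* in each of the 32 sub-clusters of neurons, as bars in UMIs per 10000 UMIs coloured by class, with exact Poisson 95% intervals where UMIs were counted. *Hoxb3* stands in sub-clusters 28 and 23, *Pou4f2* and *Nkx6-1* in sub-clusters 13 and 20, *Irx4* in 13 and *Irx6* in 10.

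Most *Pou* UMIs came from *Pou2f1*, the ubiquitous octamer-binding factor Oct1. *Pou2f1* had a UMI in 67.6% (66.4 to 68.9) of neurons at a median of 5458 UMIs and in 41.1% (40.1 to 42.2) of oligodendrocytes at 2898, and in 25.6% and 16.6% after thinning to 1000 UMIs. Its level was 2.02, 2.37, 3.98, 2.73 and 2.49 per 10000 UMIs in the neurons of rats 1 to 5, with rat 3 highest, and the class means of 2.69 ± 0.860, 2.84 ± 0.841 and 2.73 ± 0.923 (SD) in GABAergic-like, *Slc17a* and dopaminergic-like nuclei differed by less than the spread between rats. *Pou2f2* (Oct2), known from B cells and neurons, was steadier between rats, at 0.469, 0.390, 0.459, 0.436 and 0.428 in neurons. It was near absent from oligodendrocytes, where 0.613% (0.458 to 0.803) had a UMI against 18.9% (17.9 to 20) of neurons, and was highest in microglia, at 1.71 per 10000 UMIs and in 30.2% (26.4 to 34.1) of the nuclei. Within neurons it was highest in sub-cluster 17, at 1.09 (0.873 to 1.35).

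*Pou3f1* and *Pou3f2*, class III *Pou* genes that act in neural progenitors, neurons and myelinating glia, were the members called higher in dopaminergic-like than in GABAergic-like neurons. *Pou3f1* (Oct6) was at 0.0895, 0.116, 0.0947 and 0.0518 in the dopaminergic-like nuclei of rats 2 to 5 and at 0.0501, 0.0173, 0.0154, 0.00511 and 0.0186 in the GABAergic-like nuclei of rats 1 to 5. Within each of rats 2 to 5 the dopaminergic-like level was the higher one. It had a UMI in 4.72% (3.45 to 6.29) of dopaminergic-like nuclei, 0.902% (0.579 to 1.34) of GABAergic-like nuclei and 1.21% (0.992 to 1.47) of oligodendrocytes, and 7.83% (5.96 to 10.1) of OPCs. *Pou3f2* (Brn2) was at 0.121, 0.465, 0.0744 and 0.110 in the dopaminergic-like nuclei of rats 2 to 5. In the GABAergic-like nuclei of rats 1 to 5 it was at 0.117, 0.0862, 0.177, 0.0357 and 0.0824. The classes thus overlapped between rats though not within a rat. The largest dopaminergic-like sub-cluster, 2 (397 nuclei), held *Pou3f2* at 0.0436, 0.0266 and 0.0408 in rats 2, 4 and 5. Each was below the GABAergic-like level of the same rat, so the class difference rests on dopaminergic-like sub-clusters 11 and 4. *Pou3f2* was highest in rat 3 in both classes, and the free RNA of rat 3 carried *Pou3f1* at 0.748 and *Pou3f2* at 0.909 per 10000 UMIs, against 0.0376 to 0.0832 and 0.0444 to 0.109 in the other libraries. The part of free RNA in these levels was not tested beyond its subtraction, which is given for *Pou3f2* with the comparisons below.

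**Figure D4:**
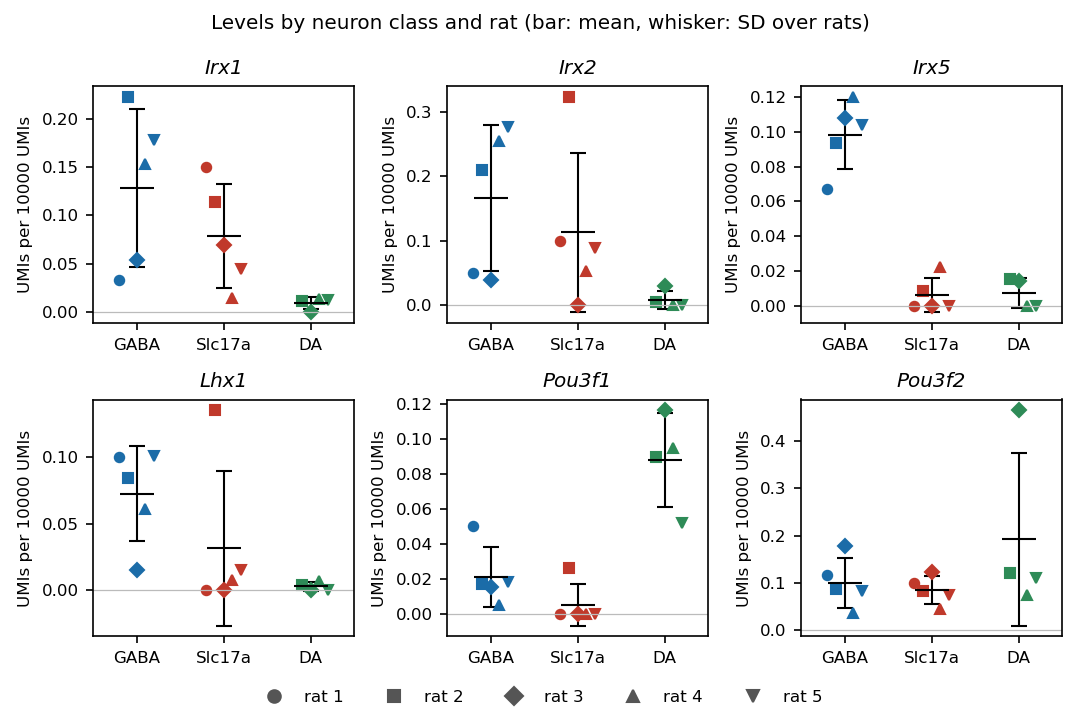
Levels of 6 members in GABAergic-like (GABA), *Slc17a* and dopaminergic-like (DA) neurons, in UMIs per 10000 UMIs, 1 symbol per rat, with the mean as a bar and the SD over rats as a whisker. The symbols of *Irx1*, *Irx2*, *Irx5* and *Lhx1* lie higher in GABA than in DA neurons, those of *Pou3f1* lie lower, rat 2 stands out for *Irx2* and *Lhx1* in *Slc17a* neurons and rat 3 for *Pou3f2* in DA neurons.

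Levels in the dopaminergic-like sub-clusters are given as values, with no test between them. *Pou3f2* was at 0.0373 (0.0199 to 0.0638) in sub-cluster 2, 397 nuclei led by *Col24a1* and *Aldh1a1*, at 0.222 (0.163 to 0.296) in sub-cluster 11, 203 nuclei led by *Tmem207* and *Slc6a3*, and at 0.471 (0.324 to 0.662) in sub-cluster 4, nearly all from rat 3. *Pou3f1* was at 0.0832 (0.0557 to 0.119), 0.0757 (0.0433 to 0.123) and 0.114 (0.0493 to 0.225) in the same 3 sub-clusters, with overlapping intervals. *Pou2f2* was at 0.410 (0.346 to 0.483) in sub-cluster 2 and 0.142 (0.0958 to 0.203) in sub-cluster 11. *Nkx6-1* had 12 UMIs in sub-cluster 2 and 0 in sub-cluster 11, and *Pou2f3*, named after its values were seen, 15 and 1. These intervals cover counting error only and not the spread between rats.

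*Pou3f3* (Brn1) was at 0.124 ± 0.0435 in GABAergic-like and 0.121 ± 0.0197 in dopaminergic-like nuclei and at 0, 0.0831, 0.0873, 0.00747 and 0 in the *Slc17a* neurons of rats 1 to 5. Apart from 2 UMIs in the 22 nuclei of sub-cluster 31, it was highest in sub-cluster 25, led by *Pax5* and *Col4a1*, at 0.401 (0.245 to 0.619), and had 0 UMIs in the 293 nuclei of sub-cluster 6, led by *Pdzrn3* and *Lmx1a*. OPCs, astrocytes and oligodendrocytes held it at 0.417, 0.354 and 0.349, above each of the neuron classes. *Pou6f1* was at 0.0578 ± 0.0302, 0.0842 ± 0.0664 and 0.0441 ± 0.0225 (SD) in GABAergic-like, *Slc17a* and dopaminergic-like nuclei, which overlapped. It had a UMI in 3.30% (2.84 to 3.81) of neurons, 0.0943% (0.0407 to 0.186) of oligodendrocytes and 4.86% (3.63 to 6.36) of astrocytes.

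*Nkx6-2*, a factor of oligodendrocyte development, was read more in oligodendrocytes than in neurons. It had a UMI in 15.9% (15.1 to 16.7) of oligodendrocytes and 4.13% (3.62 to 4.69) of neurons, and free RNA carried it at 0.454 to 1.18 per 10000 UMIs in the 5 libraries. After subtraction of free RNA the share of neurons was 0.366%, and the share of oligodendrocytes after the same subtraction was not computed. Its neuronal level was 0.0204, 0.120, 0.0470, 0.0358 and 0.0484 in rats 1 to 5, with rat 2 above the others, and rat 2 also had the most of it in free RNA, whose part in this level was not tested. *Nkx2-2*, another oligodendrocyte lineage factor, had a UMI in 0.896% (0.706 to 1.12) of oligodendrocytes and 1.99% (1.09 to 3.32) of OPCs against 0.165% (0.0755 to 0.313) of neurons.

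The *Dlx* and sine oculis families, both known from the forebrain, had few UMIs in neurons. The 7 *Dlx* rows, known from forebrain GABA neurons, summed to 7 UMIs in 5450 neurons. *Dlx1*, the first of them in the files' order among those with 3 UMIs, was in 0.0551% (0.0114 to 0.161) of neurons and 0.189% (0.108 to 0.306) of oligodendrocytes. *Six4* had a UMI in 0.826% (0.603 to 1.10) of neurons and 0.141% (0.0731 to 0.247) of oligodendrocytes, and its 46 UMIs made up most of the 58 of its family.

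These differences were tested between sums of UMIs per rat and class with the edgeR quasi-likelihood test, fitted to all genes with the rat as a block and adjusted over all genes tested with Benjamini-Hochberg. Only members with enough UMIs were tested, 21 between neurons and non-neuronal nuclei and 11 between neuron classes, and a member that passed because it was high in 1 group had to differ, so the counts of members describe them and support nothing. Between neurons and the named non-neuronal nuclei, 7 members were higher in neurons and 5 in non-neuronal nuclei, where 34.0% and 33.8% of all 15605 genes tested were called in those directions. Higher in neurons were *Lhx5* (log2 fold 2.84 ± 0.49 SE, edgeR adjusted p = 1.6e-04), *Lhx1* (2.06 ± 0.29, adjusted p = 3.1e-05), *Six4* (1.62 ± 0.46), *Pou2f2* (1.58 ± 0.13), *Lhx4* (1.42 ± 0.38), *Irx2* (1.36 ± 0.22) and *Pou6f1* (1.27 ± 0.24). Higher in non-neuronal nuclei were *Nkx2-2* (-3.50 ± 0.52), *Hoxd1* (-3.43 ± 0.59), *Nkx6-2* (-2.94 ± 0.21), *Pou3f3* (-1.91 ± 0.20) and *Pou3f1* (-1.08 ± 0.24). Most non-neuronal nuclei were oligodendrocytes, 8485 beside 702 OPCs, 1028 astrocytes, 570 microglia and 377 vascular nuclei. A call higher in neurons therefore does not hold for each glial type. As given above, *Irx2* in OPCs and astrocytes was at or above its GABAergic-like mean. *Pou2f2* was highest in microglia, and *Pou6f1* was in a larger share of astrocytes than of neurons. *Irx1* had a log2 fold of 0.54 (edgeR adjusted p = 0.058), *Irx5* of 0.64 (adjusted p = 0.072) and *Pou2f1* of 0.13, and none of these was called. *Six4* was not called without rat 2 (log2 fold 1.07, edgeR adjusted p = 0.0724) or with nuclei typed by their own markers (0.96, adjusted p = 0.0633), nor *Lhx4* without rat 5 (adjusted p = 0.0564, edgeR), and without the replicate block *Irx2*, *Pou6f1* and *Pou3f1* were not called (adjusted p = 0.0947, 0.0671 and 0.123, edgeR).

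Between GABAergic-like and dopaminergic-like nuclei, 5 of the 11 members tested were higher in GABAergic-like and 2 in dopaminergic-like nuclei, against 11.5% and 11.4% of all 12085 genes tested. *Irx2* was higher by a log2 fold of 5.39 ± 0.80, *Lhx1* by 4.44 ± 0.84, *Irx1* by 3.87 ± 0.51, *Irx5* by 3.61 ± 0.53 and *Pou2f2* by 0.74 ± 0.22 (edgeR adjusted p = 0.0187), each in 4 of 4 rats. *Pou3f1* (-2.52 ± 0.47, edgeR adjusted p = 6.5e-04) and *Pou3f2* (-0.83 ± 0.23, adjusted p = 0.0128) were lower in GABAergic-like nuclei of all 4 rats. In dopaminergic-like sub-cluster 2, though, *Pou3f2* was below the GABAergic-like level in each of rats 2, 4 and 5. The call of *Pou3f2* was lost without rat 3 (log2 fold -0.60, edgeR adjusted p = 0.109), at a minimum of 2000 UMIs (-0.65, adjusted p = 0.0714), at resolution 2.0 of the neuron clusters (-0.70, adjusted p = 0.0534) and without the replicate block (adjusted p = 0.568), and after subtraction of free RNA the fold was larger, at -1.11, with an adjusted p of 0.0510. The call of *Pou2f2* was lost without rat 3 (0.67, edgeR adjusted p = 0.0771) or rat 5 (0.66, adjusted p = 0.112), without the replicate block (adjusted p = 0.163) and with DESeq2 (adjusted p = 0.0608). Since *Irx2* and *Lhx1* had 3 and 2 UMIs in dopaminergic-like nuclei, the sizes of their folds rest on very few molecules.

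Between GABAergic-like nuclei and *Slc17a* neurons, *Irx5* (log2 fold 3.37 ± 0.55, edgeR adjusted p = 5.4e-04, higher in 5 of 5 rats) and *Irx1* (1.24 ± 0.36, adjusted p = 0.047, higher in 3 of 5 rats) were higher in GABAergic-like nuclei and no member was lower, against 3.84% and 3.72% of all genes tested. The call of *Irx1* was lost without rat 2, 4 or 5, at log2 folds of 1.52, 0.86 and 1.11 (edgeR adjusted p = 0.128, 0.264 and 0.215), after subtraction of free RNA at 1.46 (adjusted p = 0.198) and with DESeq2 at 0.96 (adjusted p = 0.603). It was also lost without the replicate block, with doublets kept, with nuclei typed by their own markers, at resolution 2.0 and at a stricter limit on glial markers, at folds of 0.65 to 1.27. *Irx2* (0.52 ± 0.42) and *Lhx1* (0.56 ± 0.49) were not called, with approximate 95% intervals of -0.30 to 1.33 and -0.39 to 1.51.

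Between *Slc17a* neurons and dopaminergic-like nuclei, *Irx2* (4.87 ± 0.92, edgeR adjusted p = 9.6e-04), *Lhx1* (3.88 ± 0.97, adjusted p = 0.0087) and *Irx1* (2.63 ± 0.66, adjusted p = 0.0092) were higher in *Slc17a* neurons, where 9.19% of all genes tested were called. *Irx2* and *Lhx1* were higher in 3 of 4 rats each and *Irx1* in 4 of 4. The class values of *Irx2* and *Lhx1* rest on a few sub-clusters, since sub-clusters 13 and 28 held all but 10 of the *Irx2* UMIs of the *Slc17a* neurons and sub-cluster 13 held 32 of the 33 *Lhx1* UMIs. *Pou3f1* (-3.05 ± 0.64), *Pou3f3* (-1.39 ± 0.46, edgeR adjusted p = 0.046) and *Pou3f2* (-1.0 ± 0.28) were lower, where 9.06% were called. Without rat 2 all 3 of the higher members lost their call, *Irx2* at a log2 fold of 3.22 (edgeR adjusted p = 0.0639), *Irx1* at 2.05 (adjusted p = 0.216) and *Lhx1* at 1.22 (adjusted p = 0.70). *Irx1* and *Lhx1* were not called without the replicate block (edgeR adjusted p = 0.0662 and 0.107), nor *Lhx1* with DESeq2 (adjusted p = 0.0801). At a stricter limit on glial markers, chosen after seeing the data, the fold of *Lhx1* turned to -0.28 (edgeR adjusted p = 0.935). That limit left out sub-cluster 13, whose glial score was 0.112. *Pou3f2* was not called without rat 3 (-0.65, edgeR adjusted p = 0.180), with doublets kept (-0.76, adjusted p = 0.0570), at a minimum of 2000 UMIs (-0.90, adjusted p = 0.0552), without the replicate block (adjusted p = 0.439) or after subtraction of free RNA, where the fold was larger, at -1.32 (adjusted p = 0.0570). *Pou3f3* was not called when rat 1, 3, 4 or 5 was left out (edgeR adjusted p = 0.0502 to 0.215), with doublets kept (adjusted p = 0.139), with nuclei typed by their own markers (adjusted p = 0.235), at resolution 2.0 (adjusted p = 0.0821), without the replicate block (adjusted p = 0.290) or after subtraction of free RNA, again at a larger fold of -2.26 (adjusted p = 0.0504). The 3 comparisons of neuron classes share samples, so their values are set side by side and not as separate evidence.

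**Figure D5:**
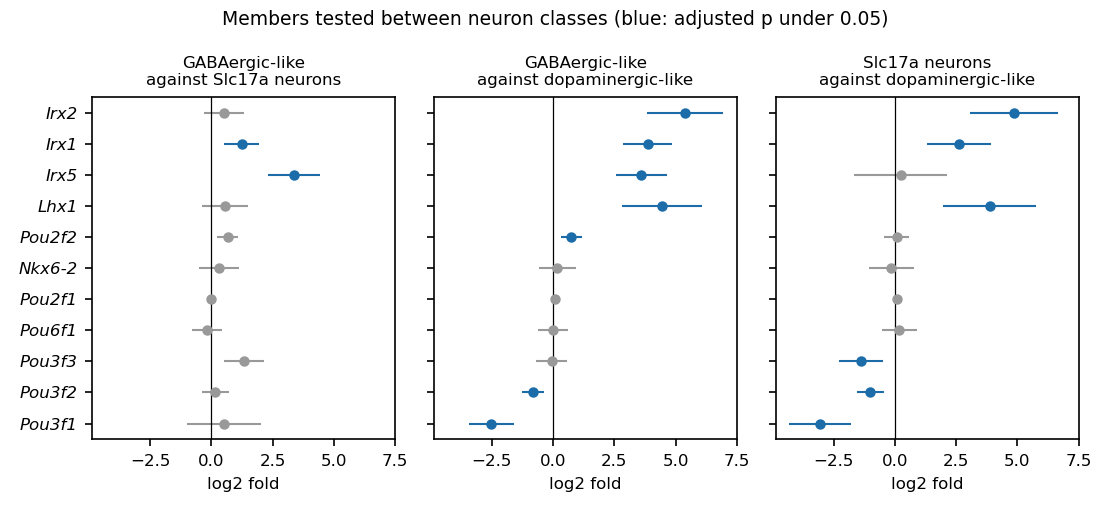
Log2 fold change (x axis, positive where higher in the class named first) of the 11 members tested in each of the 3 comparisons of neuron classes. Bars are approximate 95% intervals, and blue marks an edgeR adjusted p under 0.05. *Irx1*, *Irx2*, *Irx5* and *Lhx1* lie to the GABAergic-like side of the comparison with dopaminergic-like nuclei, and *Pou3f1* and *Pou3f2* to the other side.

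Other homeobox genes are set beside these counts, from a list of 80 genes outside the naming rule, such as *En1*, *Otx2*, *Lmx1a*, *Meis2* and *Pax5*. Of the 45 tested between neurons and non-neuronal nuclei, 25 were higher in neurons and 7 lower, with a median log2 fold of 1.38 against 0.54 for the 21 members and -0.02 for all genes. Of the 38 tested between neuron classes, 13 were higher in GABAergic-like and 12 in dopaminergic-like nuclei, 7 higher and 8 lower in GABAergic-like nuclei than in *Slc17a* neurons, and 6 higher and 9 lower in *Slc17a* neurons than in dopaminergic-like nuclei. The share called in these comparisons was 65.8%, 39.5% and 39.5%, against 22.9%, 7.56% and 18.3% of all genes tested, and between neurons and non-neuronal nuclei it was 71.1% against 67.8%. The list holds *En1* and *Pitx3*, which are also markers of the dopaminergic-like class. Unlike the members, the genes of this list were not withheld from the clustering. *Lmx1a*, *Meis2*, *Pax3* and *Pax5* were among the leading genes of sub-clusters. Their shares called between neuron classes may thus be partly fixed by how the classes were made, and cannot be compared with those of the members.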

How the data were processed

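UMI counts per gene and barcode were made by the authors with Cell Ranger and deposited as unfiltered matrices, 1 per rat. The submitters' processing notes give version 8.0.1, and the genome build is not given in the sources used here. Nuclei were kept with at least 1000 UMIs, more than 200 and fewer than 5000 genes and under 5% mitochondrial UMIs on the deposited counts. Scrublet's own threshold marked 0 to 10 nuclei per library and had not worked, so the top-scoring nuclei were removed at 0.8% per 1000 nuclei. The libraries shared 50 barcode sequences, and 0 columns of the files were left unused. Nuclei were clustered without the members (scanpy 1.11.5, leidenalg 0.10.2, 2000 variable genes, 30 principal components, 20 neighbours, resolution 1.0, no integration), named from marker lists, and clusters correlated above 0.7 with the droplets of fewer than 100 UMIs (3861 nuclei) or scoring for a second type above 0.45 of the first were left out. Neurons were clustered again alone. A sub-cluster was GABAergic-like with at least 3 *Gad1*, *Gad2* and *Slc32a1* UMIs per 10000 and under 1 of *Slc17a6*, *Slc17a7* and *Slc17a8*, dopaminergic-like with at least 5 of *Th*, *Slc6a3* and *Slc18a2*, a *Tph2* group with at least 5 of *Tph2*, *Slc6a4* and *Fev*, and set apart with a glial score above 0.13.

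Counts were summed per rat and class, sums of fewer than 10 nuclei were left out, and edgeR 4.0.16 in R 4.3.3 was used (TMM, filterByExpr, quasi-likelihood test, rat as a block, threshold 0.05), with DESeq2 1.42.0 as an alternative. The SE of a log2 fold was derived from the fold and the F statistic of the edgeR test. The 95% intervals of log2 folds take a normal distribution and ignore the few degrees of freedom. They are therefore approximate and narrower than the test allows. Nuclei were not treated as replicates, and libraries were described and not tested against each other. Pairing by rat was used because each rat gave nuclei to every class: across genes, departures from the class means correlated at 0.254 to 0.814 between 2 sums of 1 rat (18 pairs) and at -0.611 to 0.401 between sums of different rats (72 pairs). The test was also run on counts simulated without differences between rats, a run that cannot check the use of the rat as a block. Shares have exact Clopper-Pearson and levels exact Poisson 95% intervals (scipy 1.17.1, Python 3.11.15), which cover counting error only. Named members had at least 100 UMIs in neurons, the most UMIs of their family, or a call in a comparison, and any other member described was chosen after its values were seen. The members and lists were chosen with earlier results of these data known, and the doublet share, the limits on free RNA and glial markers and the class thresholds were set after the clusters, and the counts of members in them, had been seen. Alternatives were other tests, scalings and filters, no block, each rat left out, doublets kept, free RNA subtracted, at least 2000 UMIs, nuclei typed by their own markers, resolution 2.0 and a glial score limit of 0.1, the last added after seeing the data.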

Additional observations from a re-analysis of the deposited data

Results flagged for a closer look

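In 6 of 48 groups of 4 or 5 rats tested (members with at least 20 UMIs in the class), 1 rat lay far from the others by Dixon's gap over range, and chance flags about 1 in 20 groups. In UMIs per 10000 UMIs, *Nkx6-2* in the neurons of rat 2 was at 0.120, against 0.0204 to 0.0484 in the other rats. *Pou2f2* in the *Slc17a* neurons of rat 2 was at 0.451, against 0.250 to 0.301. *Lhx1* in the *Slc17a* neurons of rat 2 was at 0.136, against 0 to 0.0147. *Pou6f1* in the *Slc17a* neurons of rat 1 was at 0.200 from 4 UMIs, against 0.0349 to 0.0736. *Pou3f2* in the dopaminergic-like nuclei of rat 3 was at 0.465, against 0.0744 to 0.121, and *Pou2f1* there was at 4.10, against 2.14 to 2.46.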

How the results depend on the processing

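Of 58 member counts recomputed under an alternative, 46 stayed within 1.5 times the value reported, as did 51 of 58 counts over all genes, and of 693 log2 folds of members 630 kept direction and side of the threshold, 45 lost their call, 17 gained one and 1 reversed. The 2 members called between GABAergic-like and *Slc17a* neurons became 4 with DESeq2, 9 without filterByExpr and 1 without the replicate block. They became 1 after subtraction of free RNA, 0 with nuclei typed by their own markers, 4 at resolution 2.0 and 4 at a glial score limit of 0.1. When each rat was left out they ranged from 1 to 5. DESeq2 and the fit without filterByExpr called 3.62% and 5.87% of 22658 genes tested, against 7.56% of 12085 in the main fit. Their counts of members thus come from a larger set tested and cannot be set against the 2. In the order of the other alternatives, the shares of all genes called were 1.34%, 6.46%, 2.89%, 6.37%, 9.01% and 5.18% to 7.91%. The 6 called between *Slc17a* and dopaminergic-like neurons became 2 without the replicate block and ranged from 3 to 5 when each rat was left out. Of all genes tested, 18.3% were called in the main fit, 5.34% without the block and 13.7% to 19.1% with a rat left out. The 12 members called between neurons and non-neuronal nuclei ranged from 10 to 12, and the 7 between GABAergic-like and dopaminergic-like neurons from 5 to 7, when each rat was left out. The shares of all genes called there were 59.1% to 69.5% against 67.8%, and 17.6% to 23.8% against 22.9%. Without the replicate block 6654 genes in place of 10584 were called between neurons and non-neuronal nuclei, and 162, 854 and 645 in place of 914, 2771 and 2206 between neuron classes. Nuclei typed by their own markers gave 309 genes in place of 914 and 1433 in place of 2206, and leaving out rat 5 gave 603 in place of 914. At a glial score limit of 0.1, which left out sub-cluster 13, *Lhx1* reversed between *Slc17a* and dopaminergic-like neurons, to a log2 fold of -0.28 (edgeR adjusted p = 0.935). The causes of these changes were not tested. Sparse counts limit most members, since 76 of 100 rows had fewer than 10 UMIs in neurons.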
